A study of Mus musculus with 14 samples.

Results

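The eye-field transcription factors are described here through 10 genes, Rax, Pax6, Six3, Six6, Lhx2, Vax1, Vax2, Nr2e1, Tbx3 and Meis2, which were picked by symbol from the 55291 gene symbols of a mouse count table. All 10 symbols were found, and all 10 were among the 20562 genes kept by the filter on low counts. The study asked whether a chemical protocol can turn C57BL/6J mouse embryonic fibroblasts into retinal pigment epithelium (RPE), the pigmented layer behind the photoreceptors. Groups were the starting fibroblasts (MEF, 3 libraries), which the labels nevertheless list under the first medium, cells at day 7 and day 18 (D7 and D18, 3 libraries each, called reprogramming intermediates), cells at day 32 (D32, 3 libraries, called ciRPE) and primary RPE with no treatment (P-RPE, 2 libraries). D7 and D18 cells were kept in the M7 medium, which holds bFGF, CHIR-99021, LDN193189, A 83-01, Hh-Ag1.5, RG108, BMS-345541 and CKI-7. D32 cells had moved to the M3 medium, whose named factors are activin A, retinoic acid, nicotinamide and Y27632. The labels name the first stage as the making of eye-field cells, and these genes are the ones by which an eye field is usually recognised. Cells that looked successfully induced were scraped for RNA, so the treated groups describe chosen cells. The labels give E13.5 embryos as the tissue of all 14 libraries, P-RPE included, and state no age for the P-RPE donors.

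The eye field is a single patch of the anterior neural plate from which both eyes arise. A set of transcription factors is switched on there together, and the factors maintain each other's expression in a network in which Rax, Pax6, Six3, Six6, Lhx2, Nr2e1 and Tbx3 are the usual members. As the optic vesicle forms, its parts diverge: the future neural retina keeps Rax, Pax6, Six3, Six6 and Lhx2, the ventral vesicle and optic stalk use Vax1 and Vax2, and the future RPE comes under Mitf and Otx2. Meis2, a TALE homeodomain protein, acts as a cofactor of Pax6 and other homeodomain proteins. Several of the factors work outside the eye too, among them Tbx3 and Meis2 in limb mesenchyme.

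Library totals lay between 32352405 and 41390196 counts, so that 1 count was worth 0.0227 to 0.0305 CPM, the unit of level used here (counts relative to TMM-scaled library size). Among all nonzero values up to 10 counts, 72% were even numbers, against 54.4% of values from 100 to 1000 counts, and 21 of the 24 such values of the 10 genes were even. Whether the mates of a read pair were counted one by one is not given in the sources used here. Were they, a value of 2 would be 1 RNA fragment, and counting intervals would be too narrow. RPE markers marked the end groups: the summed level of 12 markers was 1.48 to 2.13 CPM in MEF, 4465 to 8453 CPM in D32 and 58373 to 64181 CPM in P-RPE. Separate cultures or animals behind the libraries of a group are not mentioned in the labels, so p-values measure a spread between libraries that may be technical. All 5 groups entered 1 fit, so the spread in groups outside a comparison counts in its p-value too. RNA came from bulk cells, and fewer expressing cells cannot be told apart from less RNA per cell in any value that follows.

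Promoter sequence is shown for 4 of the genes because their levels set apart the time courses below: Pax6, which was high from day 7, and Six3, Lhx2 and Nr2e1, which came up between day 18 and day 32. Each run is taken from RefSeq's start sites on GRCm38.p6, written 5′ to 3′ on the gene's strand, and cut to bases before the start that lie in no annotated exon. Capitals mark matches of TGACAG on either strand, the core recognised by Meis proteins.
Pax6 (chr2:105668646-105668895, plus strand): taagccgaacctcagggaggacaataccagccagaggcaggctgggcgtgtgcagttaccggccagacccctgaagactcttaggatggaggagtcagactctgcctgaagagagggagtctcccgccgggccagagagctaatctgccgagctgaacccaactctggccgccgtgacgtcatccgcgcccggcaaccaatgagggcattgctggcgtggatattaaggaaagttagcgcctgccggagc
Six3 (chr17:85620584-85620789, plus strand): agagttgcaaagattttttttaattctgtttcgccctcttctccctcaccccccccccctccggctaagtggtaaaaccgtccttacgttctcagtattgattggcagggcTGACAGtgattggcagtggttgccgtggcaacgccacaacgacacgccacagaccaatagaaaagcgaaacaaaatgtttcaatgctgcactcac
Lhx2 (chr2:38339031-38339280, plus strand): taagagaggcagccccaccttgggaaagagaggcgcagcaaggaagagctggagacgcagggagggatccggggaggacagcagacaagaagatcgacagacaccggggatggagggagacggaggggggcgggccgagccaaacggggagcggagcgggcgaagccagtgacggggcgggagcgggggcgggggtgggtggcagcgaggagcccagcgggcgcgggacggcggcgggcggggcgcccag
Nr2e1 (chr10:42583633-42583821, minus strand): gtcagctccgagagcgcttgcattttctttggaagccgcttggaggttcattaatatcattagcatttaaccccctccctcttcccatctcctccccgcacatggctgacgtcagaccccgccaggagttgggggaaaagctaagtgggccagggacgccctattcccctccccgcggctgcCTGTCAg
The RefSeq table held 9 start sites for 7 of the 10 genes. In the 250 bases before the start, TGACAG was found at 4 of those 9, at Six3, Nr2e1, Six6 and an inner start of Pax6, and at 15.9% of 32851 promoters in the table. The windows held no match to TAATTA, the homeodomain core, TAATCC, the core of Otx proteins, or CACGTG, an E-box read by Mitf, which stood in 4.84%, 6.25% and 6.02% of all promoters. The windows also differed in base composition, with 72.8% G and C at Lhx2, 60.8% at the outer Pax6 start and 48.8% at Six3, beside a median of 52.4% over all promoters. Matches describe letters only.

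Detection changed in the order of the groups. A gene was taken to be at the floor where each library of the group had 3 counts or fewer, low where the group mean was under 1 CPM but above that floor, and present from a mean of 1 CPM. In MEF, 4 genes were present (Tbx3, Meis2, Lhx2 and Vax2), 3 were low (Rax, Pax6 and Six3) and 3 were at the floor (Six6, Vax1 and Nr2e1). In D7, 5 were present, since Pax6 joined these 4, and the same 3 were at the floor. D18, the end of the stage named for eye-field cells, had 3 genes present, Pax6, Meis2 and Tbx3, with Six6 and Nr2e1 at the floor and the other 5 low. In D32, 9 genes were present and Vax1 alone was at the floor, with 0 counts in all 3 libraries. In P-RPE, 9 were present, Vax1 was low and none was at the floor. A floor of 3 counts corresponds to 0.0682 to 0.0914 CPM in these libraries, so expression under that level was not detectable at this depth.

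**Figure D1:**
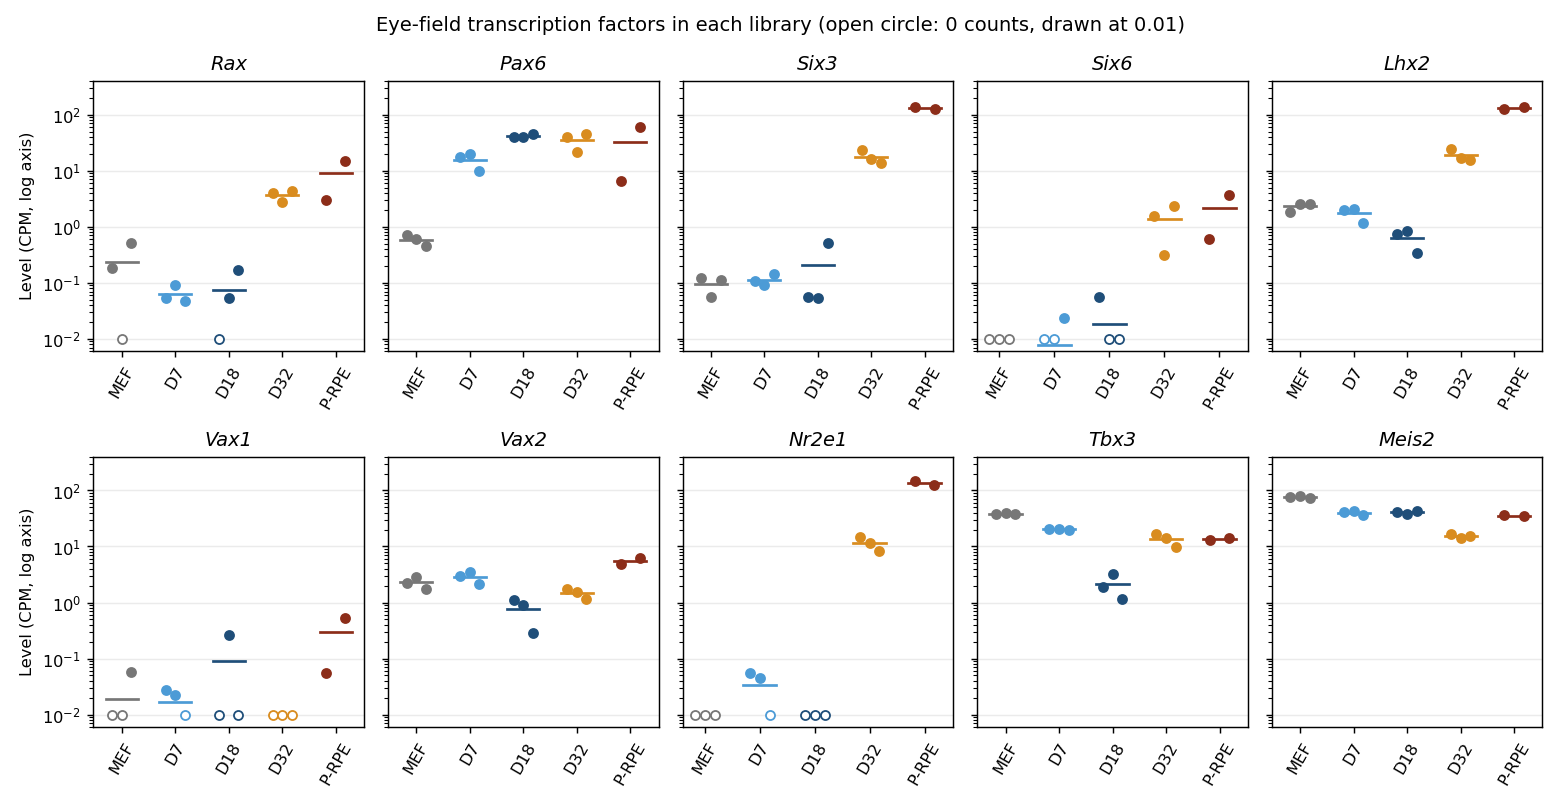
Level of each of the 10 genes in each library, in CPM on a log axis, with points for the 14 libraries coloured by group, a bar at each group mean and open circles for 0 counts. Pax6 lay near its final level by D18, while Six3, Lhx2 and Nr2e1 lay between 8.17 and 24.7 CPM in D32 and between 124 and 150.4 CPM in P-RPE, and Vax1 had 0 counts in the 3 D32 libraries.

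Changes between groups were tested with edgeR's quasi-likelihood test over all 20562 genes, and calls rest on an adjusted p (Benjamini-Hochberg) under 0.05. Between MEF and D7, 3 of the 10 genes changed, with Pax6 higher and Tbx3 and Meis2 lower, where 55% of all genes tested were called, 28.5% higher and 26.5% lower. Between D7 and D18, 3 fell (Lhx2, Vax2 and Tbx3) and none rose, against 56.6% of all genes called, 29.2% higher and 27.4% lower. Between D18 and D32, 7 were called, against 56% of all genes: Rax, Six3, Six6, Lhx2, Nr2e1 and Tbx3 were higher and Meis2 lower. Genes called higher were 29.9% of all genes in that comparison and genes called lower 26.1%, beside 6 and 1 of these 10. The median log2 change of the 10 from D18 to D32 was 3.77, beside 0.07 over all genes tested.

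Against the starting cells, the balance reversed between the intermediate and the end product. D18 had 5 of the 10 called, where 70.2% of all genes were called, 37.4% higher and 32.7% lower: only Pax6 was higher, and Lhx2, Vax2, Tbx3 and Meis2 were lower. D32 had 8 called against 60.2% of all genes (35.6% higher and 24.6% lower), with Rax, Pax6, Six3, Six6, Lhx2 and Nr2e1 higher and Tbx3 and Meis2 lower. P-RPE had 9 called against 70.7% of all genes (39.3% higher and 31.4% lower), the same 6 and Vax2 higher and the same pair lower. These 3 comparisons share the MEF libraries, so their likeness is no independent evidence. D32 against P-RPE gave 6 called, all lower in D32 (Six3, Lhx2, Vax1, Vax2, Nr2e1 and Meis2), where 53.9% of all genes were called, 27.1% higher and 26.8% lower. The median log2 change of the 10 was 3.51 for D32 against MEF and -1.58 for D32 against P-RPE, beside 0.26 and 0.02 over all genes. These medians, and that for D32 against D18, fall between genes counted in both groups, so bounds for genes at 0 counts leave them as they are.

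**Figure D2:**
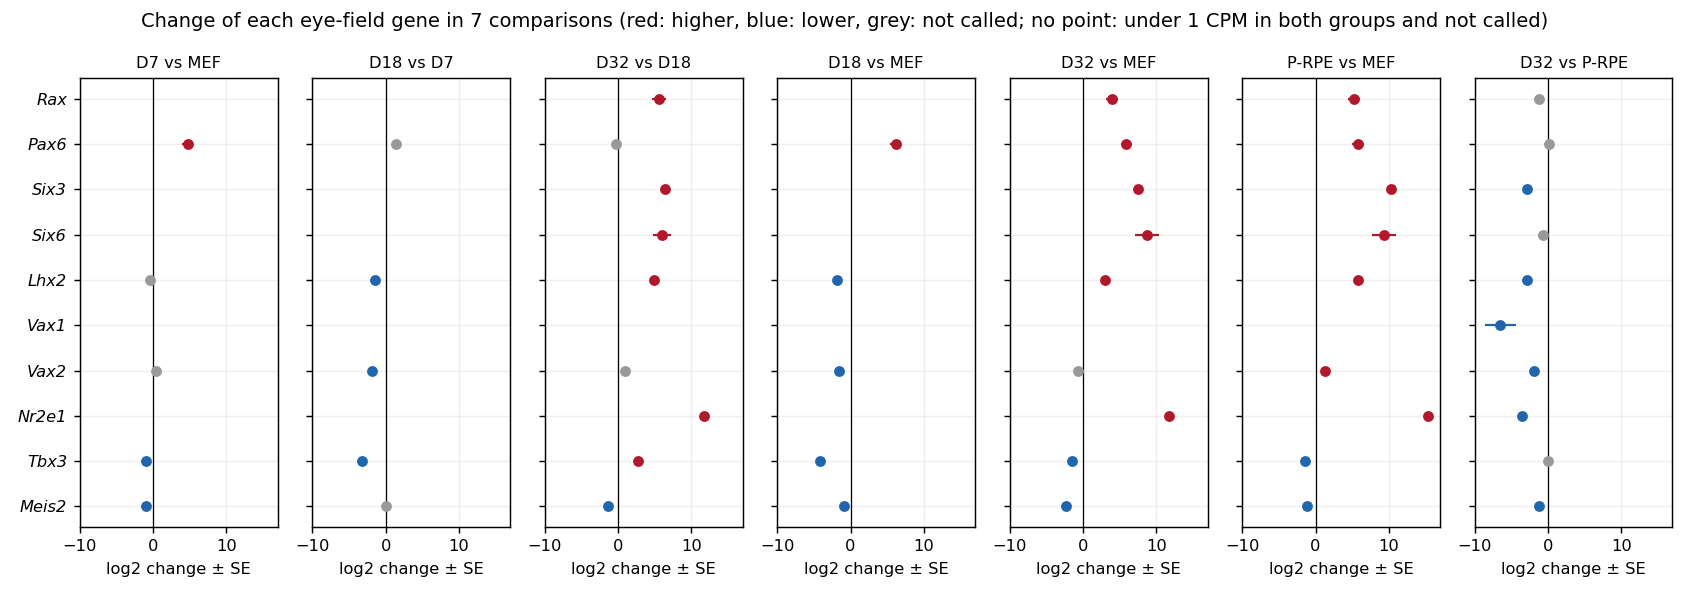
Fitted log2 change with its standard error for each of the 10 genes in 7 comparisons, with called genes in red (higher in the group named first) or blue (lower) and others in grey. From D18 to D32 the 6 genes called higher lie to the right, with Vax2, which was not called, close to the line on the same side, and Vax1 has a point only against P-RPE; the fitted values of Six6 and Nr2e1 against a group at or near 0 counts depend on a prior count.

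Pax6 was the only 1 of the 10 that rose in the first week. Pax6 (ENSMUSG00000027168.21, GRCm38 chromosome 2, 105668900 to 105697364, plus strand) is a paired-domain and homeodomain factor that acts throughout eye development and also in the neural tube. The 3 MEF libraries held 23, 22 and 16 counts, the D7 libraries 637, 891 and 423, the D18 libraries 1419, 1494 and 1598, the D32 libraries 1601, 813 and 1734, and the P-RPE libraries 235 and 2223. Every treated library was far above every MEF library, the D7 libraries were all below the D18 libraries, and the P-RPE libraries were the lowest and the highest of the groups after D7. Mean levels were 0.588 ± 0.125 CPM in MEF, 15.8 ± 5.30 in D7, 41.8 ± 3.28 in D18, 35.6 ± 12.5 in D32 (SD, n = 3 each) and 33.1 ± 37.5 in P-RPE (SD, n = 2). Pax6 was 26.9 times higher in D7 than in MEF, a log2 change of 4.75 ± 0.76 (SE, adjusted p = 0.000191, edgeR's quasi-likelihood test). From D7 to D18 the log2 change of 1.40 ± 0.57 did not pass (adjusted p = 0.0541, edgeR), although the libraries did not overlap. The spread in that fit includes that between the P-RPE libraries. The change passed under 5 of the other settings, with adjusted p of 0.0453 with RLE size factors, 0.0376 in DESeq2, 0.0326 among genes of at least 5 CPM, 0.0282 in limma-voom and 0.00157 in an edgeR fit of the 2 groups alone. D18 and D32 overlapped (adjusted p = 0.75, edgeR).

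Markers of other neural regions also changed between MEF and D18, in both directions, and their part in the rise of Pax6 was not tested. Of 13 hindbrain and spinal cord markers, 9 rose and 2 fell from MEF to D18, beside 37.4% higher and 32.7% lower among all genes. Their summed level was 140 to 158 CPM in MEF, 299 to 351 CPM in D7 and 255 to 290 CPM in D18. From D7 to D18, 4 rose and 3 fell, beside 29.2% and 27.4% of all genes. Over that step the mean of Pax6 went from 15.8 to 41.8 CPM. From D18 to D32, 12 of those 13 fell, beside 26.1% of all genes, to a sum of 39.0 to 46.3 CPM, while the D18 and D32 libraries overlapped in Pax6. All 8 astrocyte markers were also called higher in D18 than in MEF, beside the same 37.4% of all genes, with sums of 25389 to 37121 CPM against 593 to 625 CPM. Of 10 forebrain and hypothalamus markers, 8 were tested and 6 fell from MEF to D18 (32.7% of all genes), with 1 higher (37.4% of all genes) and a sum of 10.2 to 16.2 CPM against 78.1 to 83.1 CPM. Of 9 lens markers, Cryga and Crygd had 0 counts in every group, and the list summed to at most 4.88 CPM in any library.

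Six3, Lhx2 and Nr2e1 formed the group that came up late. Six3 (ENSMUSG00000038805.10, GRCm38 chromosome 17, 85613608 to 85629302, plus strand), a sine oculis homeodomain factor that represses Wnt signalling in the anterior neural plate, had 4, 2 and 4 counts in MEF, 4, 4 and 6 in D7 and 2, 2 and 18 in D18. It then had 939, 605 and 526 counts in D32 and 4828 and 4780 in P-RPE. No library before day 32 came near those after it, and the D32 and P-RPE libraries did not overlap. Means were 0.208 ± 0.265 CPM in D18, 17.7 ± 5.12 in D32 (SD, n = 3 each) and 132 ± 4.94 in P-RPE (SD, n = 2). The log2 change from D18 to D32 was 6.42 ± 0.43 (SE, adjusted p = 2.16e-08, edgeR), and D32 lay 7.42 times below P-RPE (log2 -2.89 ± 0.31, SE, adjusted p = 2.78e-06, edgeR).

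Nr2e1, the orphan nuclear receptor Tlx that keeps neural and retinal progenitors dividing, was the gene with the widest range (ENSMUSG00000019803.11, GRCm38 chromosome 10, 42561963 to 42583632, minus strand). It had 0 counts in the 3 MEF and the 3 D18 libraries and 2, 2 and 0 in D7, then 584, 442 and 313 in D32 and 5375 and 4613 in P-RPE. The early groups were at the floor, and both late groups stood clear of them and of each other. With the floor set at 3 counts for the group as a whole, D32 was at least 416-fold higher than D18 and P-RPE at least 4751-fold higher than MEF. Means were 11.5 ± 3.23 CPM in D32 (SD, n = 3) and 137 ± 18.9 in P-RPE (SD, n = 2), and D32 lay 11.9 times below P-RPE (log2 -3.58 ± 0.25, SE, adjusted p = 5.38e-07, edgeR).

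Lhx2 differed from these 2 in its start. Lhx2 (ENSMUSG00000000247.11, GRCm38 chromosome 2, 38339281 to 38369733, plus strand) is a LIM-homeodomain factor needed for the optic vesicle to pass to the optic cup, and it is also known in limb mesenchyme. MEF libraries held 60, 92 and 90 counts, D7 libraries 72, 92 and 50, D18 libraries 26, 32 and 12, D32 libraries 988, 628 and 590, and P-RPE libraries 4518 and 5120. The gene was thus lowest in the 3 D18 libraries, below all MEF and D7 libraries, before it stood highest in D32 and P-RPE. It fell by 1.84 ± 0.32 on the log2 scale from MEF to D18 (SE, adjusted p = 9.87e-05, edgeR) and rose by 4.87 ± 0.30 from D18 to D32 (SE, adjusted p = 6.57e-09, edgeR). D32 lay 6.97 times below P-RPE, at 18.9 ± 5.09 CPM (SD, n = 3) against 132 ± 7.63 CPM (SD, n = 2).

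Rax and Six6 also came up between day 18 and day 32, to lower levels. Rax (ENSMUSG00000024518.4, GRCm38 chromosome 18, 65928277 to 65939787, minus strand) is the homeodomain factor without which eyes do not form. It had 6, 0 and 18 counts in MEF, 2, 4 and 2 in D7, 0, 2 and 6 in D18, 159, 105 and 168 in D32, and 109 and 557 in P-RPE. D32 and P-RPE libraries were all above the earlier ones, with P-RPE replicate 1 (3.05 CPM) inside the D32 range of 2.77 to 4.38 CPM and replicate 2 (14.9 CPM) above it. Rax rose from 0.0748 ± 0.0875 CPM in D18 to 3.71 ± 0.840 CPM in D32 (SD, n = 3 each), a log2 change of 5.58 ± 0.92 (SE, adjusted p = 0.000143, edgeR). Against P-RPE, at 8.99 ± 8.40 CPM (SD, n = 2), the log2 change of -1.28 ± 0.68 did not pass (adjusted p = 0.13, edgeR). Rax shares 1604 exon bases, 27.4% of its own, with Raxos1 on the other strand, which had 1 count in D32 and 3 and 13 in P-RPE. How reads from shared bases were counted is not stated, so the level of Rax is uncertain to that extent.

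Six6, a close relative of Six3 that keeps retinal progenitors dividing, is annotated at GRCm38 chromosome 12, 72939892 to 72944899 on the plus strand (ENSMUSG00000021099.6). Libraries held 0, 0 and 0 counts in MEF, 0, 0 and 1 in D7, 2, 0 and 0 in D18, 62, 12 and 89 in D32, and 22 and 138 in P-RPE. It was at the floor until day 18, and the D32 and P-RPE libraries spread widely and overlapped. Over the group, D32 was 75.9 times higher than D18, with an exact 95% counting interval of 20.7 to 631.9, and the edgeR test of that change passed (adjusted p = 0.000944). Against MEF, Six6 was at least 48.8-fold higher in D32 and at least 76.1-fold higher in P-RPE. D32 and P-RPE, at 1.40 ± 1.01 CPM (SD, n = 3) and 2.16 ± 2.18 CPM (SD, n = 2), did not differ beyond their spread (log2 -0.63 ± 0.80, SE, adjusted p = 0.534, edgeR).

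Of the ventral optic factors, Vax1 stayed near the floor and Vax2 dipped in D18. Vax1 (ENSMUSG00000006270.7, GRCm38 chromosome 19, 59166187 to 59170056, minus strand), a homeodomain factor of the optic stalk, had 0, 0 and 2 counts in MEF, 1, 1 and 0 in D7, 0, 10 and 0 in D18, 0, 0 and 0 in D32, and 2 and 20 in P-RPE. Most of its counts stood in 1 D18 and 1 P-RPE library. It was called lower in D32 than in P-RPE, by at least 11.7-fold against the floor (adjusted p = 0.0199, edgeR), and the call was lost without P-RPE replicate 2 (adjusted p = 0.253) and in DESeq2 (adjusted p = 0.0504). The test against MEF did not pass in any of the 4 comparisons with it.

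Vax2 (ENSMUSG00000034777.2, GRCm38 chromosome 6, 83711264 to 83738313, plus strand), which marks the ventral retina, was measured in every library. Counts were 74, 105 and 62 in MEF, 111, 156 and 92 in D7, 40, 34 and 10 in D18, 71, 58 and 44 in D32, and 177 and 228 in P-RPE. The D18 libraries were the 3 lowest and the P-RPE libraries the 2 highest in CPM, while MEF and D7 overlapped. Vax2 fell by 1.91 ± 0.39 on the log2 scale from D7 to D18 (SE, adjusted p = 0.00073, edgeR). From D18 to D32 it moved from 0.772 to 1.49 CPM, a log2 change of 0.94 ± 0.40 that missed the threshold (adjusted p = 0.0563, edgeR) and passed under some other settings, with adjusted p between 0.0156 and 0.0489. P-RPE was 2.40 times higher than MEF (log2 1.26 ± 0.40, SE, adjusted p = 0.0105, edgeR), a call lost without P-RPE replicate 2 (adjusted p = 0.0667).

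Tbx3 and Meis2, which fibroblasts already expressed, took different courses. Tbx3 (ENSMUSG00000018604.18, GRCm38 chromosome 5, 119670669 to 119684724, plus strand) is a T-box repressor that acts in the eye field and in limb mesenchyme. Counts were 1270, 1411 and 1325 in MEF, 758, 898 and 845 in D7, 68, 122 and 40 in D18, 673, 532 and 378 in D32, and 476 and 519 in P-RPE. The D18 libraries were the lowest by far, and D32 and P-RPE libraries overlapped. Tbx3 fell by 4.18 ± 0.28 on the log2 scale from MEF to D18 (SE, adjusted p = 5.16e-09, edgeR), from 38.4 ± 0.752 to 2.10 ± 1.07 CPM (SD, n = 3 each), and rose by 2.68 ± 0.27 to D32 (SE, adjusted p = 1.02e-06, edgeR). At 13.6 ± 3.51 CPM in D32 and 13.6 ± 0.417 CPM in P-RPE it differed by less than the spread between libraries (adjusted p = 0.996, edgeR).

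Meis2 (ENSMUSG00000027210.20, GRCm38 chromosome 2, 115863064 to 116065839, minus strand) was highest in MEF and lowest in D32. Counts were 2535, 2841 and 2624 in MEF, 1526, 1877 and 1538 in D7, 1477, 1400 and 1520 in D18, 662, 541 and 598 in D32, and 1283 and 1305 in P-RPE. In CPM, D7 and D18 overlapped, all D32 libraries lay below all others, and both P-RPE libraries lay just under D7 and D18. Means were 76.7 ± 2.11 in MEF, 40.1 ± 3.42 in D7, 40.7 ± 3.06 in D18, 15.5 ± 1.15 in D32 (SD, n = 3 each) and 35.4 ± 0.655 CPM in P-RPE (SD, n = 2). The fall from D18 to D32 was 1.39 ± 0.10 on the log2 scale (SE, adjusted p = 3.25e-08, edgeR), and D32 was 2.29 times below P-RPE (adjusted p = 4.75e-07, edgeR). Of 11 fibroblast markers, 6 fell and 2 rose from MEF to D18 (32.7% and 37.4% of all genes), and 5 rose and 3 fell from D18 to D32 (29.9% and 26.1% of all genes). Their summed level was 10361 to 10782 CPM in MEF, 1629 to 6510 in D18, 6665 to 10472 in D32 and 771 to 959 CPM in P-RPE. Most of the sum was Col1a1 and Col1a2, with means of 7481 and 2403 CPM in MEF. They stood at 2366 and 1765 CPM in D18 and at 5047 and 3259 CPM in D32. Dpt and Lum were the 2 that rose to D18, and they fell from D18 to D32, as Prrx2 did. The sum, though not each marker, was thus lower in D18 than in MEF, as Tbx3 and Meis2 were. It was higher again in D32, as Tbx3 was, while Meis2 was lower still. In P-RPE the sum was lowest, while Tbx3 was as in D32 and Meis2 was higher than in D32. The part of fibroblasts in these courses was not tested.

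Levels of different genes were compared per kilobase of annotated exons. In MEF and D7 Meis2 had the highest mean, at 6.37 ± 0.175 and 3.33 ± 0.284 CPM per kilobase, with Tbx3 next at 5.80 ± 0.113 and 3.06 ± 0.0544 (SD, n = 3). In D7 that difference lay within the spread of Meis2. In D18 Pax6 and Meis2 led at 3.57 ± 0.280 and 3.38 ± 0.254 CPM per kilobase, a difference within their spread, and the next gene, Vax2, stood at 0.622. In D32 Lhx2, Six3, Nr2e1 and Pax6 lay between 3.04 and 4.30 CPM per kilobase with SDs of 0.870 to 1.16, so their order was not resolved. In P-RPE Nr2e1 (36.9 ± 5.10), Lhx2 (30.0 ± 1.74) and Six3 (24.16 ± 0.907; SD, n = 2) led, and Vax2 followed at 4.45 CPM per kilobase. With the length of the longest transcript instead, Pax6 had the highest mean in D32 (8.04 CPM per kilobase) and Lhx2 in P-RPE (46.4). By either length Nr2e1, Lhx2 and Six3 led in P-RPE. In D32 Pax6 was not set apart from them per kilobase of exons. By the longest transcript, the means of Lhx2, Six3 and Nr2e1 there were below that of Pax6, at 6.66, 4.82 and 3.50 CPM per kilobase. No spread was computed for that length, so this order is one of means only.

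Set as a share of P-RPE, the 10 genes in D32 ran from 0% to 108%. Nr2e1 stood at 8.38% of its P-RPE mean, Six3 at 13.48% and Lhx2 at 14.3%. Vax2 followed at 26.9%, Rax at 41.3%, Meis2 at 43.7% and Six6 at 64.8%, with Tbx3 at 99.8% and Pax6 at 108%. Six3 ranged from 10.4% to 17.9% over the 3 D32 libraries, Lhx2 from 11.7% to 18.8% and Nr2e1 from 5.96% to 10.7%. Pax6 ranged from 64.9% to 137%, Six6 from 14.7% to 108%, Tbx3 from 72.5% to 124% and Rax from 30.8% to 48.8%. The P-RPE means of Pax6, Six6 and Rax rest on 2 libraries that differed 9.06, 6.01 and 4.89 times. Otx2, the homeodomain factor that specifies RPE with Mitf, stood at 13.8%, and 12 RPE markers at 8.71% to 59.6% with a median of 12.7%.

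Markers of some cells other than RPE rose at the same time as the late group, and those of others fell. From D18 to D32, all 5 red cell, all 6 endothelial and all 6 macrophage markers were called higher, beside 29.9% of all genes. Red cell markers summed to at most 0.579 CPM in any library of MEF, D7 and D18, to 102 to 204 CPM in D32 and to 974 to 1779 CPM in P-RPE, and each stood in D32 at 8.90% to 12.6% of its P-RPE level. Endothelial markers stood at 12.7% to 93.0% and macrophage markers at 11.2% to 38.3%, with summed levels in D32 of 156 to 208 CPM and 86.2 to 152 CPM. The rod genes Nrl, Crx and Pde6b stood lower, at 1.96% to 2.99%, and Pde6b averaged 65.1 CPM in P-RPE and 1.47 CPM in D32. All 8 astrocyte markers were called lower in D32 than in D18, beside 26.1% of all genes. In D32 they stood at 21.0% to 5129% of their P-RPE level. The part of these cells in the levels of Six3, Lhx2, Nr2e1, Rax and Six6 in D32 and P-RPE was not tested.

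**Figure D3:**
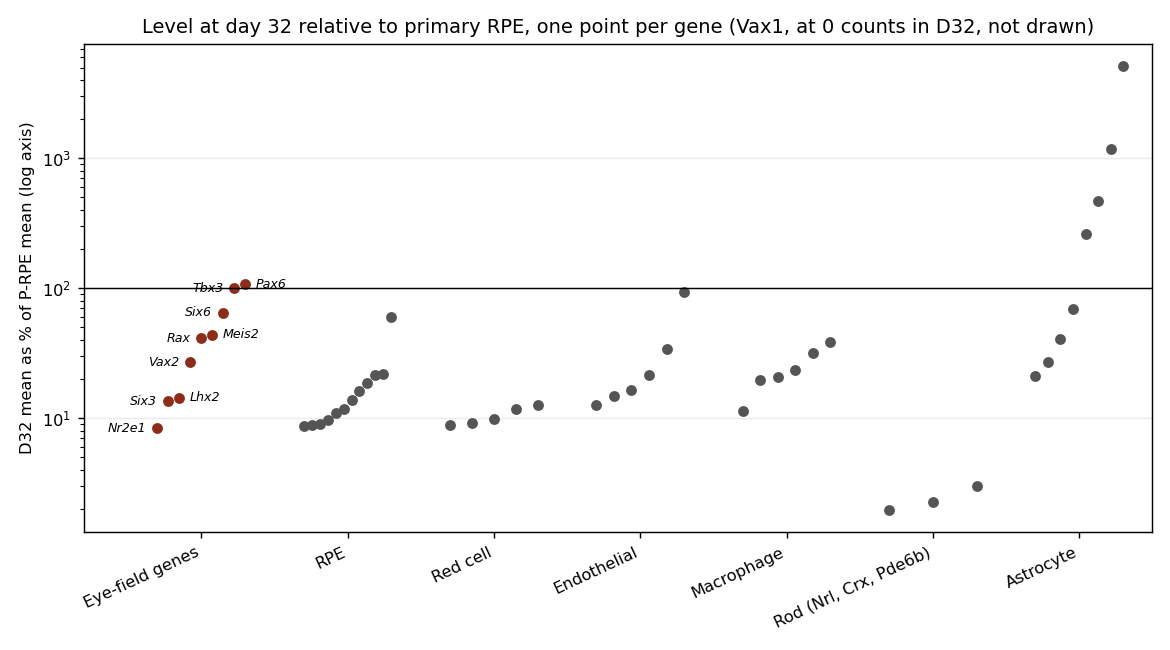
Mean level in D32 as a percentage of the mean in P-RPE, on a log axis, with 1 point per gene for the eye-field genes and 6 marker lists and a line at 100%. Nr2e1 lies at 8.38%, just under the lowest RPE marker (8.71%), and Six3 and Lhx2 lie within the range of RPE markers. Rod genes lie at 2.99% or less, and Tbx3 and Pax6 lie at the line. For Pax6 the P-RPE mean is that of libraries at 6.58 and 59.6 CPM.

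The 2 P-RPE libraries disagreed on Pax6, Rax and Six6. Pax6 was 9.06 times higher in replicate 2 than in replicate 1, at 59.6 against 6.58 CPM, Six6 6.01 times (3.70 against 0.616 CPM) and Rax 4.89 times (14.9 against 3.05 CPM). The other 6 measured genes lay within ratios of 0.822 to 1.23, Nr2e1, Six3 and Lhx2 among them at 0.822, 0.948 and 1.09. Of 14578 genes kept by the filter and with a P-RPE mean of 1 CPM or more, 0.809% were at least 4-fold higher in replicate 2 and 0.117% at least 4-fold lower. This comparison was chosen after the values were seen, rests on 1 library each and has no test. Among optic vesicle partners, Zic2 was 11.4 times and Otx1 6.37 times higher in replicate 2. The same 3 rod genes were 2.52 to 2.81 times and red cell markers 1.73 to 1.95 times higher there, and RPE markers ranged from 0.708 to 1.79. The comparison with D32 turned on the library: without replicate 1 Rax was lower in D32 by 2.01 on the log2 scale (adjusted p = 0.0269, edgeR) and Pax6 by 0.74 (adjusted p = 0.114), and without replicate 2 Pax6 was higher in D32, by 2.44 (adjusted p = 0.000658), and Rax by 0.28 (adjusted p = 0.812).

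**Figure D4:**
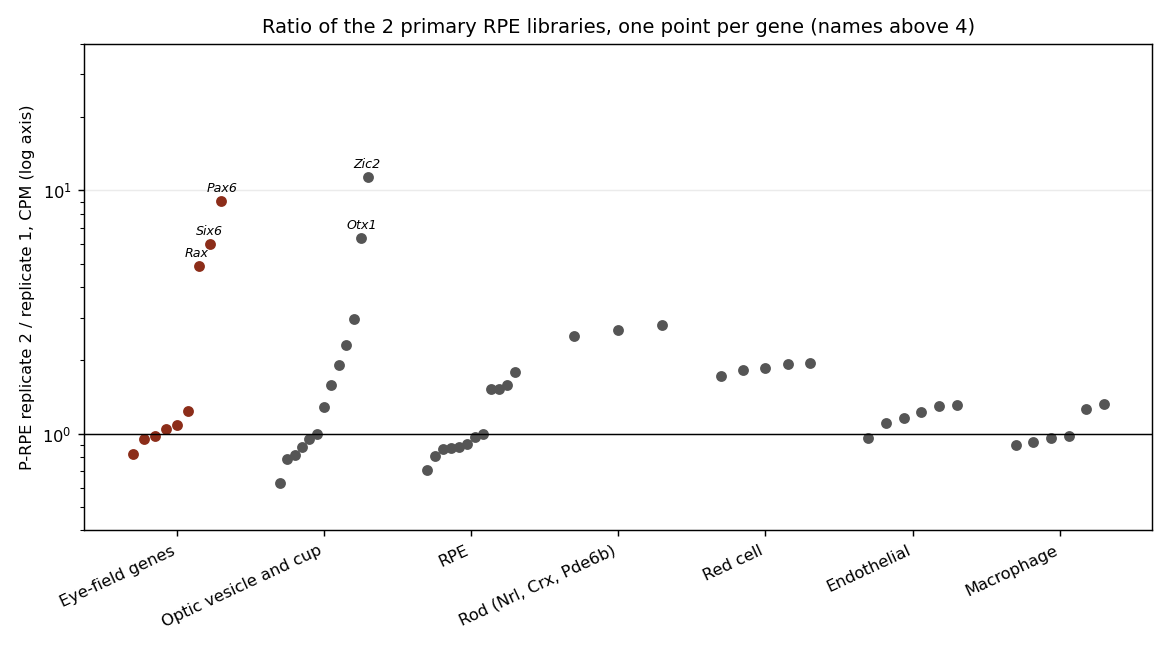
Ratio of the level in P-RPE replicate 2 to that in replicate 1, on a log axis, with 1 point per gene for the eye-field genes and 6 marker lists and a line at equality. Pax6, Six6 and Rax lie at 4.89 to 9.06 and Otx1 and Zic2 at 6.37 and 11.4, while RPE, endothelial and macrophage markers lie between 0.708 and 1.79.

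Antisense partners of these genes followed them in part. Six3os1, a long RNA that starts beside Six3 and runs the other way (GRCm38 chromosome 17, 85600651 to 85618398, minus strand), had 0 counts in all MEF and D7 libraries and 2, 4 and 5 in D18, then 1490, 822 and 899 in D32 and 8304 and 8220 in P-RPE. As for Six3, the late groups stood apart from the early ones, and D32 was at 12.14% of P-RPE. The gene models share 106 exon bases, 1.95% of the Six3 exons, and since the strand setting of the counting is not stated, reads there cannot be assigned to one or the other. Vax2os shares no exon base with Vax2 and took another course: it had 1, 0 and 1 counts in MEF, 49, 18 and 35 in D7, 2, 9 and 1 in D18, 33, 32 and 44 in D32 and 193 and 512 in P-RPE. D7, D32 and P-RPE were above MEF in every library, and from MEF to D7 it rose 43.1 times, with an exact 95% counting interval of 11.6 to 361 (adjusted p = 0.000127, edgeR), where the log2 change of Vax2 was 0.33 ± 0.36 (SE, adjusted p = 0.462, edgeR).

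Pax6os1 and Tbx3os1 were rarer. Pax6os1 had 0 counts in MEF, 1, 5 and 1 in D7, 10, 35 and 26 in D18, 38, 14 and 38 in D32, and 4 and 52 in P-RPE, a ratio of 12.5 between the P-RPE libraries. Like Pax6, it was therefore lowest in MEF and split between the P-RPE libraries. Tbx3os1 had 8, 7 and 2 counts in MEF, 32, 26 and 42 in D7, 11, 8 and 6 in D18, 20, 28 and 25 in D32, and 55 and 69 in P-RPE. It rose from MEF to D7 (log2 2.29 ± 0.47, SE, adjusted p = 0.000699, edgeR), where Tbx3 fell by 0.92 ± 0.24 (SE, adjusted p = 0.00461, edgeR). On the other strand across the start of Six6, 4930447C04Rik, a protein-coding gene added to the list after the annotation was read, shares 192 exon bases, 4.79% of the Six6 exons. It had 6, 24 and 8 counts in MEF and 26, 19 and 28 in D7, where Six6 had at most 1, then 0, 1 and 0 in D18, 104, 31 and 118 in D32 and 38 and 45 in P-RPE. Both genes were thus higher in D32 than in D18, but only this one was counted in every MEF and D7 library. The D32 library with the fewest Six6 counts, replicate 2, had the fewest here too, as it had for Pax6, Rax, Meis2 and Pax6os1. It also had the fewest for Six3os1 (822) and, narrowly, for Vax2os (32). Six3, Lhx2, Nr2e1, Vax2 and Tbx3 had their fewest D32 counts in replicate 3. The part of shared reads in the Six6 counts was not tested.

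**Figure D5:**
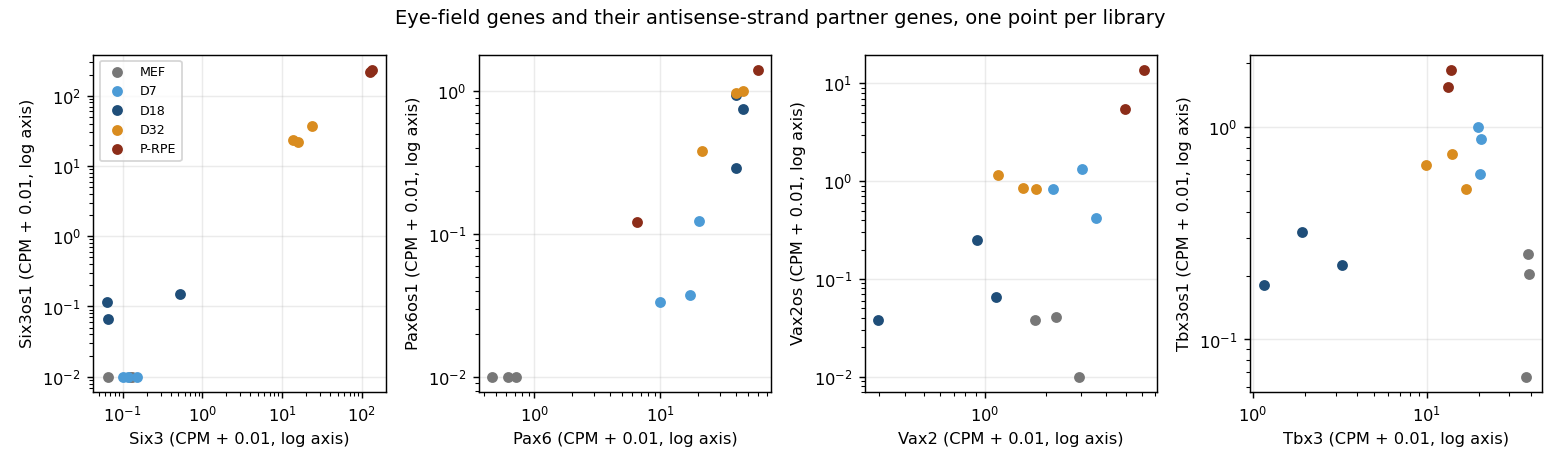
Level of the antisense partner against that of the eye-field gene for 4 pairs, in CPM plus 0.01 on log axes, with 1 point per library coloured by group. Six3os1 and Six3 are high in the same 5 libraries, Pax6os1 is low in the P-RPE library with low Pax6, and Tbx3os1 is at most 0.244 CPM in MEF, where Tbx3 is highest.

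Of 16 genes that act beside the eye-field factors in the optic vesicle and cup, 15 were tested. From MEF to D18, 6 were higher and 5 lower, shares close to the 37.4% and 32.7% of all genes. Sox2, the neural progenitor factor, rose by 5.67 ± 0.28 on the log2 scale (SE, adjusted p = 4.18e-10, edgeR) and Otx1 by 4.25 ± 0.96, a call lost in limma-voom (adjusted p = 0.0539), while Foxd1, of the temporal retina and of stroma, fell by 5.42 ± 0.34 and the ligand gene Bmp4 by 4.26 ± 0.16. Bmp7 was the most abundant of those that did not pass, at 9.51 CPM in MEF and 8.97 CPM in D18, and was called lower without D18 replicate 2 (adjusted p = 0.0405, edgeR). From D18 to D32, 9 were higher and 2 lower, beside 29.9% and 26.1% of all genes. Otx2, which had 0 counts in the MEF and D18 libraries, was at least 2650-fold higher in D32, at 73.0 ± 26.5 CPM (SD, n = 3), and Foxd1 rose by 4.36 ± 0.34, while Sox2 fell by 3.81 ± 0.26 and Zic2 by 1.99 ± 0.55. Sfrp1, a secreted Wnt antagonist, was the most abundant that did not pass (587 CPM in D18 and 444 CPM in D32), and was called lower without D18 replicate 3 (adjusted p = 0.00339, edgeR). Hesx1, a homeobox gene of the anterior neural plate, was under 0.157 CPM in every library and was not tested.

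Of 15 close relatives of these genes, 10 were higher and 2 lower in D32 than in D18, beside 29.9% and 26.1% of all genes. Six2, a mesenchymal relative of Six3, rose by 5.67 ± 0.29 on the log2 scale (SE, adjusted p = 8.37e-10, edgeR), and Nr2e3, the photoreceptor relative of Nr2e1, was at least 14.3-fold higher in D32 than in D18, where it had 0 counts, a call lost with no filter on low counts (adjusted p = 0.0569, edgeR). Meis1, the nearest paralog of Meis2, fell by 1.68 ± 0.16, and Nr2f1, a nuclear receptor of the optic vesicle and forebrain, by 1.44 ± 0.21. Six5 was the most abundant that did not pass, at 21.9 CPM in D18 and 17.5 CPM in D32. From MEF to D18, where Meis2 fell, Meis1 rose by 1.07 ± 0.16 (SE, adjusted p = 2.43e-05, edgeR), and where Lhx2 fell, its paralog Lhx9 fell by 7.40 ± 0.52 (SE, adjusted p = 6.65e-09, edgeR). Whether paralogs and eye-field genes differed in their change was not tested.

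For the 8 genes with at least 5 CPM in some group, the genes of most similar course were sought among 13606 candidates, by the root mean square difference of centred log2 CPM over the 14 libraries. Six3 was nearest to Otx2os1 (0.38) and Chp2 (0.46), Lhx2 to Fbxo27 (0.39) and Apold1 (0.49), and Nr2e1 to Adra2c (0.42) and the endothelial tight-junction gene Cldn5 (0.45). Fbxo27, like Lhx2, dipped to 0.562 CPM in D18 and reached 123 CPM in P-RPE. Vax2 was nearest to Cmklr1 (0.36) and Ly6e (0.42), Tbx3 to Pcdh18 (0.35) and Fmnl3 (0.38), and Meis2 to Nxn (0.29) and Pcdh9 (0.30). Over the 14 libraries the neighbours of Pax6 and Rax were farther off: Shd (0.80) and Chrdl1 (0.81) for Pax6, and Adgrl4 (0.82) and Gm45285 (0.87) for Rax. These pairs depend on the settings. With a prior count of 0.5 in place of 2, both neighbours stayed for Pax6, Vax2, Tbx3 and Meis2 and 1 of 2 for the other 4 genes, and the nearest gene to Six3 became Pde6c. With the 5 group means in place of the libraries, 1 of 2 stayed for Six3, Lhx2, Vax2 and Nr2e1 and none for Rax, Pax6, Tbx3 and Meis2. Rax then had a neighbour at 0.37 (Clec12a), and the nearest to Nr2e1 was the red cell gene Hbb-bt (0.25). The closest matches in that setting were Fbxo27 for Lhx2 (0.046) and Gpr143 for Six3 (0.084). Those of Vax2, Tbx3, Meis2 and Pax6 were Cmklr1 (0.13), Angpt2 (0.22), Insyn1 (0.27) and Scara5 (0.57). The 14 libraries share 5 groups, and the distances are descriptions with no test.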

How the data were processed

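Total RNA of 14 mouse libraries was read from both ends. Values are counts as deposited, whole and unscaled, with a gene symbol for each line. Tools in the submitters' processing notes are STAR 2.7.11a, featureCounts, Subread, edgeR 4.0.16 and limma 3.58.1, with the builds mm10, GRCm38 and GRCh38, without roles. Strand setting, multi-mapped reads and annotation release are not given in the sources used here. A second table of 10 human columns was not used. Groups and replicate numbers came from the titles. The genes and lists were chosen with earlier results of these data known.

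Counts were TMM-scaled, filtered with filterByExpr by group and fitted in 1 quasi-likelihood model of 5 group means (edgeR 4.0.16, R 4.3.3). Each comparison is a contrast, with p adjusted (Benjamini-Hochberg) over all 20562 genes kept and a threshold of 0.05. SE is the log2 change over the square root of F. A group at 0 counts was given 3 for a lower bound of the fold. Where it had 1 to 3, an exact 95% interval of the ratio, for counting error only, is given. Exon lengths and coordinates are from GENCODE vM21 on GRCm38, which held 96.4% of the symbols. Named genes are the 10, their 2 nearest genes, and for the lists described the called pair that changed most in each direction plus the most abundant gene that missed the threshold; others were chosen after their values were seen. Lens, RPE, forebrain, hindbrain, astrocyte, fibroblast, endothelial, red cell, macrophage and neural retina markers were written from textbook knowledge; some of their genes are not reported here. The fit was tested on simulated data. Alternatives were RLE size factors, library totals, no filter, a minimum mean of 5 CPM, a replicate block, limma-voom, DESeq2 1.42.0, fits of 2 groups, other floors and lengths, and leaving out each library.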

Additional observations from a re-analysis of the deposited data

How the results depend on the processing

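Changes of the 10 genes that were called, or that had 1 CPM in either group, were computed again under 8 other settings and without each library in turn. Over these alternatives, 666 values kept their direction and side of the threshold, 12 came to pass it, 3 no longer passed and 15 changed sign, none of the 15 called under the settings of the report. Meis2 from D7 to D18, at 0.02 in the report, was -0.19 with library totals, -0.00047 with no filter, and -0.067 to 0.072 leaving out 1 library (below 0 without D7 replicate 3 and, at -0.022, without D18 replicate 3). Tbx3 in D32 against P-RPE was 0.22 with totals, 0.057 with no filter and in a fit of the 2 groups alone, 0.11 with the replicate block, and 0.18 and 0.029 without D32 replicate 3 or P-RPE replicate 2. Pax6 in D32 against D18 was -0.44 to 0.032 leaving out 1 library (above 0 without D32 replicate 2), and against P-RPE -0.74 to 2.44 (-0.10 without D32 replicate 3, and the extremes without P-RPE replicate 1 and 2). D32 against P-RPE was -2.01 to 0.28 for Rax and -1.40 to 1.18 for Six6, the extremes again without P-RPE replicate 1 and 2. Of 19 changes given for other genes, 258 values kept their direction and side, 2 came to pass (Bmp7 and Sfrp1), 2 no longer passed (Otx1 and Nr2e3) and 2 changed sign: Bmp7 from MEF to D18 was 0.022 with library totals and -0.31 to 0.046 leaving out 1 library (above 0 without D18 replicate 3). The cause was not tested. Library totals move log2 changes by up to 0.32, from MEF to D7.

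Counts of called genes among the 10, leaving out 1 library at a time, stayed at 3 for D7 against MEF and D18 against D7, 5 for D18 against MEF and 8 for D32 against MEF, and ranged from 7 to 8 for D32 against D18, 8 to 10 for P-RPE against MEF and 6 to 7 for D32 against P-RPE. In the same fits, all genes called numbered 10043 to 10588, 10425 to 11182, 13512 to 13963 and 11124 to 12303 for the comparisons with a steady count. For the others, in the order given, they numbered 10355 to 11362, 13106 to 13727 and 8869 to 11113. Genes at the floor numbered 5 in D7 with a floor of 10 counts, and in D18 1 with a floor of 1 count, 4 with 10 counts and 2 to 4 leaving out 1 library. In P-RPE 0 to 1 were at the floor leaving out 1 library, and 5 were present in D18 from 0.5 CPM. With the longest transcript as length, the highest gene had 13.96 CPM per kilobase in MEF, 7.29 in D7, 9.43 in D18, 8.04 in D32 and 46.4 in P-RPE, since a shorter length raises each value. Same-numbered libraries deviated together with correlations of -0.0967 to 0.0953, so the numbers were not taken as pairs. With the replicate block, 4 of the 10 were called for D7 against MEF and for D18 against D7, Nr2e1 being added at 4 counts or fewer, and 8 for D32 against D18. Over the settings that kept all libraries, all genes called in these comparisons ranged from 9119 to 12088, 9273 to 11909 and 9003 to 11801. At these depths, values under 3 counts per library could not be told from the floor.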
